A study of Mus musculus with 6 samples.

Results

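The ELAVL (Hu) and STAR families are groups of RNA-binding proteins, and 8 of their genes were followed here by symbol in mouse hippocampus: Elavl1, Elavl2, Elavl3, Elavl4, Khdrbs1, Khdrbs2, Khdrbs3 and Qk. They are 8 of the 36008 genes in the gene table and hold 56 of the 116622 annotated transcripts that could be matched. RNA-seq of polyadenylated RNA had been made from the hippocampus of 3 WT and 3 Prmt9 KO mice, all female, of strain B6J and 2 weeks old, and each KO mouse was compared with same-sex littermates. The KO is a germline deletion of a floxed exon, made with CMV-Cre, so that every cell of the animal carries it. PRMT9 is an arginine methyltransferase that modifies the splicing factor SF3B2, and the question of the design was which transcripts change in level or splicing without it.

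ELAVL proteins bind AU-rich and U-rich stretches in messenger RNA, stabilise many of these messages and act on nearby splice sites and polyadenylation sites. ELAVL1 (HuR) is found in most cell types, whereas ELAVL2 (HuB), ELAVL3 (HuC) and ELAVL4 (HuD) are known as neuronal members. The STAR proteins share a KH-type RNA-binding domain. KHDRBS1 (Sam68), KHDRBS2 (SLM1) and KHDRBS3 (SLM2) regulate alternative exons, those of the neurexin genes among them, and QK (quaking) regulates splicing, stability and localisation of myelin messages and is known for its high level in glia. Splicing and 3′ end choice of these genes themselves are also regulated, and in the ELAVL and QK genes this changes the linker or the tail of the protein.

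The stretches that separate the forms of these genes are shown first, because the shares given below turn on them. All positions are in GRCm38, and all sequences were read 5′ to 3′ from the GENCODE M21 transcripts. The 3 neuronal ELAVL genes share a 39-base exon in the hinge, the linker before the last RNA recognition motif, on the minus strand at chr4:91254141-91254179 for Elavl2, chr9:22024674-22024712 for Elavl3 and chr4:110209740-110209778 for Elavl4. Capitals mark the 32 bases that are the same in all 3 genes.
Elavl2 hinge exon: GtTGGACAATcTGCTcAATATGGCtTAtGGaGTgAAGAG
Elavl3 hinge exon: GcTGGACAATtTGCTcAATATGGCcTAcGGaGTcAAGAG
Elavl4 hinge exon: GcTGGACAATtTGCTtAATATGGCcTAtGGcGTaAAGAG
Elavl3 and Elavl4 have 35 of the 39 bases in common, Elavl2 and Elavl3 have 34, and Elavl2 and Elavl4 have 33. Each of the 4 ELAVL genes also has exons of 104, 154 and 226 bases, and over these 484 bases Elavl3 and Elavl4 were identical at 80.0%, Elavl2 and Elavl4 at 78.1%, and Elavl1 and any neuronal member at 69.8% to 72.1%.

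In Elavl4, the exon after the hinge exon can start 42 bases earlier, at chr4:110206660-110206701, which adds this stretch.
Elavl4 extension: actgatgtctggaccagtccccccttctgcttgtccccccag
In Elavl2 the last exon, and in Elavl3 the second exon, can start at either of a pair of acceptors that lie 3 bases apart. The first 24 bases of the longer forms, at chr4:91253547-91253570 and chr9:22036837-22036860 on the minus strand, are given with the 3 optional bases in capitals.
Elavl2 last exon start: TAGgttttctccaatgacgatcga
Elavl3 second exon start: CAGatactgggggccatggagtct

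The QK protein has 3 alternative C-terminal tails, known as QKI-5, QKI-6 and QKI-7, which share the RNA-binding part of the protein and differ in where they take it in the cell. Their coding sequences are on the minus strand of chromosome 17 and are shown from the first base after the shared exon to the stop codon in capitals. The QKI-5 tail is joined from chr17:10213359-10213433 and chr17:10209615-10209631, the QKI-6 tail lies at chr17:10214169-10214194 and the QKI-7 tail at chr17:10215431-10215474.
QKI-5 tail: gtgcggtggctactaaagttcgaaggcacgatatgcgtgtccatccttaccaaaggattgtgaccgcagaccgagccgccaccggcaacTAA
QKI-6 tail: gtatggctttcccaacgaaaggcTAA
QKI-7 tail: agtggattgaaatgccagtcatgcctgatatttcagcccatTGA

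The 4 STAR genes share a coding exon of 117 bases. It lies at chr4:129727555-129727671 (minus strand) in Khdrbs1, chr1:32333466-32333582 (plus strand) in Khdrbs2, chr15:69013358-69013474 (plus strand) in Khdrbs3 and chr17:10273947-10274063 (minus strand) in Qk, and capitals mark the 57 bases that all 4 genes share.
Khdrbs1 exon: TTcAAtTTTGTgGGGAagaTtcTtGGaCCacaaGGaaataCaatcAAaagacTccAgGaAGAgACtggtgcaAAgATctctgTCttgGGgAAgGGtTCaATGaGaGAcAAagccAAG
Khdrbs2 exon: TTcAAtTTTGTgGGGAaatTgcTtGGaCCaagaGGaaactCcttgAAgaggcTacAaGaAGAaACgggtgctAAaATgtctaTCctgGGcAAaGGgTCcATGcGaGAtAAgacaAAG
Khdrbs3 exon: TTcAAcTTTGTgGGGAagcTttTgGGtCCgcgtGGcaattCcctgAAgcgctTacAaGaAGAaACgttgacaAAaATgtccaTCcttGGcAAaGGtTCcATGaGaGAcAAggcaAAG
Qk exon: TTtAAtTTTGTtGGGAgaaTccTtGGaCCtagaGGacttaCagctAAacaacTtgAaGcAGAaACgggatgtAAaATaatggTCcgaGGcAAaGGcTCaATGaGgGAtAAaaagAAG
Khdrbs2 and Khdrbs3 were identical at 76.9% of these bases, Khdrbs1 and Khdrbs2 at 74.4%, and Qk and Khdrbs3 at 58.1%, the lowest of the 6 pairs. In 1 Khdrbs3 transcript, Khdrbs3-206, this exon is left out together with the next one, of 147 bases, at chr15:69017328-69017474.
Khdrbs3 next exon: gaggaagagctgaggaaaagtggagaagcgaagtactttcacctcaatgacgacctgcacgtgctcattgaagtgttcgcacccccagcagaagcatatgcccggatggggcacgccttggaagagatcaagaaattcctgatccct
Together the 2 exons are 264 bases long, a whole number of codons, so the reading frame goes on without them.

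The estimated counts of the 6 libraries summed to between 194098391 and 286771677, and the counts of the 8 genes ranged from 1516 to 2231 for Khdrbs2 to between 43151 and 82721 for Elavl3. The targeted gene was lower in the KO: Prmt9 had 11.8, 15.2 and 15 TPM (a level scaled for transcript length and for the sum of its library) in WT replicates 1, 2 and 3, and 3.93, 4.61 and 4.67 TPM in the Prmt9 KO replicates, which leaves 31.5% of the WT mean. WT replicate 1 and Prmt9 KO replicate 1 stood apart from the other 4 mice, at 50.3 and 35.3 on a first principal component that held 81.7% of the variance of log2 CPM, with the others between −23.7 and −18.4. In WT replicate 1, 37.4% of the transcripts had no count, against 22.8% to 24.8% in the other 5 libraries. The mean transcript length, weighted by TPM, was 1677 bases in WT replicate 1 and 1853 bases in Prmt9 KO replicate 1, against 2006 to 2046 bases in the others. The neuron markers Rbfox3, Snap25, Syt1, Tubb3 and Map2 were each at 1 TPM or more in every mouse, as were all markers of excitatory neurons of the hippocampus, and no marker of the 9 cell type lists was at 0. The 6 oligodendrocyte markers summed to 2156 TPM in WT replicate 1 and 1127 TPM in Prmt9 KO replicate 1, against 8226 to 12004 TPM in the other mice, and the 3 choroid plexus markers to 7239 TPM in WT replicate 1, against 604 to 3315 TPM in the others. Almost all of that sum was Ttr, at 7157 TPM in WT replicate 1. Folr1 was also highest there, at 74.5 TPM, but Kl was not, at 7.44 TPM there and 3.46 to 15.5 TPM in the others. The part of these differences in the values below was not tested, and in bulk tissue fewer cells of a type and less RNA per cell cannot be told apart.

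All 8 genes were expressed in every mouse, over a wide range of levels. Khdrbs3 was the highest, with 181, 191 and 196 TPM in the WT mice and 204, 216 and 192 TPM in the Prmt9 KO mice, and it was in first place in 6 of 6 mice. Khdrbs2, which encodes its close relative SLM1, was the lowest, with 4.98, 6.30 and 6.72 TPM in WT and 5.98, 6.34 and 6.25 TPM in KO. Among the 36008 genes of a mouse, Khdrbs3 stood at percentile 97.7 to 98.2 and Khdrbs2 at 68.2 to 68.9. By the mean of the WT mice the order of gene TPM was Khdrbs3, Qk, Elavl3, Khdrbs1, Elavl2, Elavl4, Elavl1 and Khdrbs2. Qk and Elavl3 overlapped in both genotypes, and so did Khdrbs1 and Elavl2, and each of these genes was the higher of its pair in 4 of 6 mice or the lower in the same 4. Elavl2 and Elavl4 overlapped in WT but not in KO, and Elavl2 was the higher in 6 of 6 mice. All other neighbours in the order had ranges that did not overlap.

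**Figure D1:**
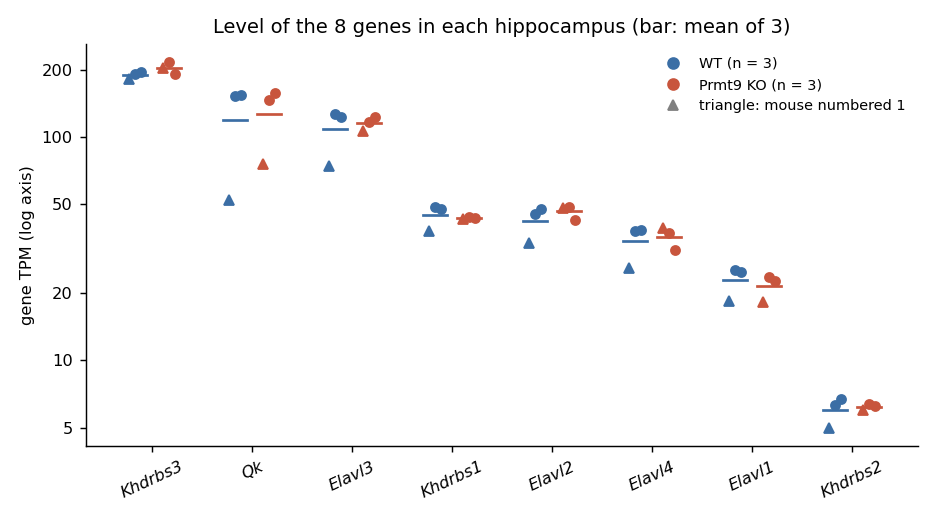
Gene TPM (log axis) of the 8 genes in each of the 3 WT (blue) and 3 Prmt9 KO (red) hippocampus samples, with a bar at the mean of 3 and triangles for the mice numbered 1. Khdrbs3 is the highest and Khdrbs2 the lowest in every mouse, the genotypes overlap for each gene, and the triangles of Qk lie far below its other points.

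Elavl3 (HuC) was the most abundant neuronal ELAVL message, with 74.1, 127 and 123 TPM in WT and 106, 117 and 123 TPM in KO. It made up 54.9% to 62.5% of the summed TPM of the 3 neuronal genes in the 6 mice, whereas Elavl2 (HuB) made up 21.5% to 25.2% and Elavl4 (HuD) 15.8% to 20.2%. The low value belonged to WT replicate 1, and the other 5 mice lay between 106 and 127 TPM. Elavl2 had 33.7, 45.2 and 47.4 TPM in WT and 48.0, 48.5 and 42.7 TPM in KO. Elavl4 had 25.9, 37.8 and 38.5 TPM in WT and 39.1, 37.1 and 31.2 TPM in KO. For both genes WT replicate 1 was again the lowest of the 6 by TPM, and the genotypes overlapped. The order differed by CPM (counts scaled to the size of the library, not for length). Elavl2 had 61.6 CPM in WT replicate 1, against 47.0 to 63.6 in the other mice. Elavl4 had 52.3 CPM there, against 40.1 to 58.1, whereas Elavl3 was lowest there on this scale too, at 232. The summed neuron markers were 1868 TPM in WT replicate 1 and 2523 to 2775 TPM in the other 5, but the sum mixes markers that went opposite ways. Tubb3 had 704 and 886 TPM in WT replicate 1 and Prmt9 KO replicate 1, against 278 to 325 TPM in the others. Rbfox3, Snap25, Syt1 and Map2 were lowest in these same mice, with Snap25 at 517 and 781 TPM against 1132 to 1269 TPM. The part of the neuron markers in the levels of these 3 genes was not tested. Elavl1 (HuR) was the lowest of the 4, with 18.5, 25.3 and 25 TPM in WT and 18.3, 23.5 and 22.7 TPM in KO, and here both mice numbered 1 were the low ones by TPM. By CPM Prmt9 KO replicate 1 was the lowest, at 58.9, but WT replicate 1 had 64.5, inside the range of the other mice.

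Among the STAR genes, Khdrbs3 held 77.7% to 81.2% of the summed TPM of the Khdrbs genes in every mouse and Khdrbs1 (Sam68) 16.5% to 19.8%. Khdrbs1 had 37.9, 48.7 and 47.8 TPM in WT and 43.1, 43.9 and 43.4 TPM in KO, so that the 3 KO values lay inside the WT range. By TPM, Khdrbs3 varied least of the 8 genes, with a highest value 1.19 times its lowest. By CPM it ran from 131 to 171, with WT replicate 1 the highest. On that scale Elavl1 ran only from 58.9 to 65.8 and Khdrbs2 from 7.28 to 8.15. Qk varied most, by 3.02 times: it had 52.0, 152 and 154 TPM in WT and 76.1, 147 and 157 TPM in KO. The mice numbered 1 were far below the other 4 in both genotypes, at 42.0% of their mean. These are the same mice in which the oligodendrocyte markers were low, at 2156 and 1127 TPM. In them the mean transcript length weighted by TPM was also short, at 1677 and 1853 bases. The part of either in the Qk level was not tested.

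**Figure D2:**
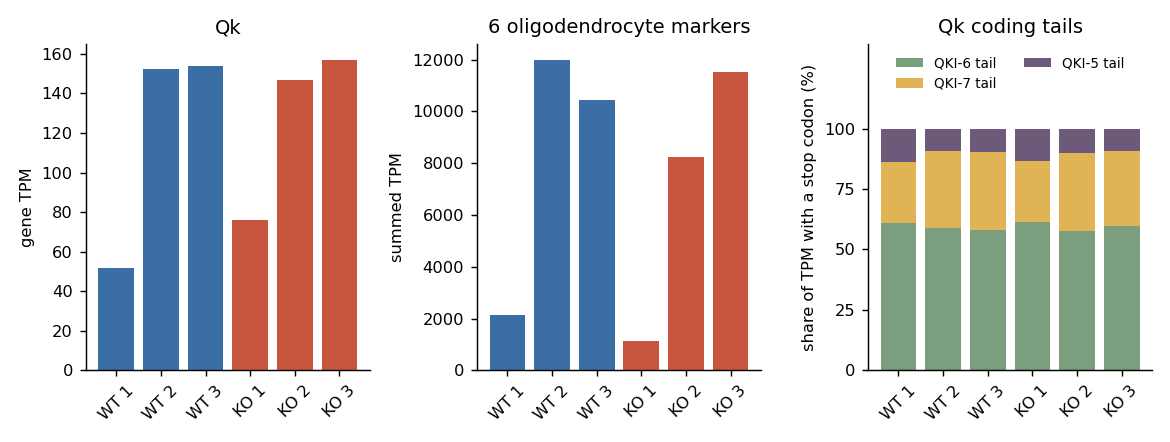
Left, gene TPM of Qk in each mouse. Middle, summed TPM of 6 oligodendrocyte markers. Right, the share of the 3 coding tails in the TPM of the Qk transcripts that have an annotated stop codon, in percent. WT 1 and KO 1 are the low bars in the left and middle panels, and the QKI-6 tail holds 57.7% to 61.3% in all 6 mice.

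The comparison of the genotypes asked whether any of the 8 genes changed in level in Prmt9 KO hippocampus. On the count scale, edgeR's quasi-likelihood test called 0 of 8, where a call needs a fold change above 1.5 and an adjusted p below 0.01, 0 of 8 had an unadjusted p below 0.05, and DESeq2 and limma on log2(TPM + 1) called 0 of 8 as well. Over all genes edgeR called 0 of 20315 (0%), DESeq2 called 3 of 18370 (0.0163%), and 1.24% had an unadjusted p below 0.05 in edgeR. The deleted gene Prmt9 had a log2 fold change of −1.71 and an edgeR adjusted p of 0.0327. At 0.01 this test therefore missed a known loss, and the lack of a call for a member is weak evidence of no change. DESeq2 did call Prmt9 (adjusted p = 9.21e-61). The gene with the largest fitted difference was Khdrbs1, with CPM (counts scaled to the size of the library, not for length) of 85.4, 83.3 and 80.9 in WT and 82.2, 74.2 and 71.1 in KO, and a log2 fold change of −0.13 (SE 0.10, edgeR adjusted p = 1). Its 95% interval went from 0.776-fold to 1.07-fold. Without both mice numbered 1, Khdrbs1 had an unadjusted p of 0.0033 and an adjusted p of 0.143 in edgeR's test, with a log2 fold change of −0.17. At gene level it is the only member that reached an unadjusted p below 0.05 in any setting, and did so there and with a batch term for those mice.

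Elavl1 had CPM of 64.5, 65.8 and 64.1 in WT and 58.9, 63.7 and 60.8 in KO, with a log2 fold change of −0.085 (SE 0.08, edgeR adjusted p = 1). All KO values were below all WT values, which held for 3.17% of all genes tested, and non-overlap in either direction held for 7.01%. It was the 1 member of 8 without overlap in CPM, and on the TPM scale it overlapped as the other 7 did, where the share of all genes of at least 1 TPM in every mouse without overlap was 5.88%. Elavl2 and Elavl4 had log2 fold changes of −0.0037 and 0.0039 (SE 0.15 and 0.16), Elavl3 of 0.033 (SE 0.14), Khdrbs2 of −0.051 (SE 0.11), Khdrbs3 of −0.035 (SE 0.13) and Qk of −0.065 (SE 0.30), each with an edgeR adjusted p of 1. These small values have no settled direction: those of Elavl2, Khdrbs2, Khdrbs3 and Qk were positive with limma on log2(TPM + 1), at 0.15, 0.047, 0.10 and 0.17. The median over all genes was 0.046 in that fit, beside −0.011 in edgeR, so the Khdrbs2 value lies at that of the median gene. The 95% interval of the fold change went from 0.580 to 1.58 for Qk, whose spread between mice was the widest. For each of the other 7 genes it stayed within 0.769 and 1.31, so that a 1.5-fold change of these lies outside their intervals.

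**Figure D3:**
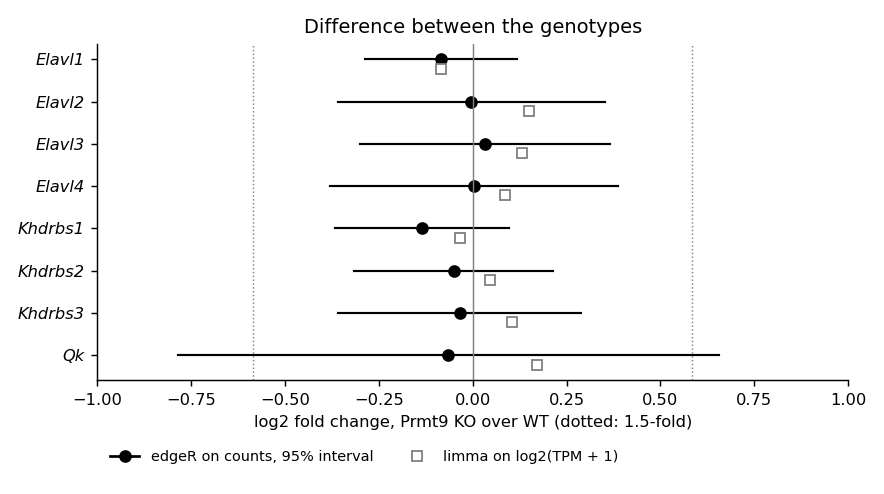
Log2 fold change of Prmt9 KO over WT for each gene, from edgeR on counts with its 95% interval (black) and from limma on log2(TPM + 1) (open squares), with dotted lines at 1.5-fold. All intervals hold 0, that of Qk reaches past both dotted lines, and 4 squares lie on the other side of 0 from their black point.

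The forms of each gene were compared next, by the share of each transcript in the summed TPM of its gene in a mouse. Of the 56 member transcripts, 30 had a mean share of at least 5%, and 5 of these did not overlap between the genotypes, where 9.38% of all such transcripts of all genes did not. The 5 were Elavl1-201, Elavl2-206, Elavl4-203, Khdrbs3-201 and Khdrbs3-206. For each of these shares the exact two-sided permutation test gave p = 0.1, the smallest that 3 mice against 3 allow. In the test of transcript usage across all genes (edgeR diffSpliceDGE, Simes), 0 of 8 members were called, 0 of 8 had an unadjusted p below 0.05 and limma's diffSplice also called 0 of 8. Over all 13560 genes 22 were called (0.162%), and 1.67% had an unadjusted p below 0.05. That count was 12 with the mouse number as a block, 139 without WT replicate 1 and 6 without Prmt9 KO replicate 3, with 0 members in each. By pairs of the same number, 9 of the 30 member shares moved 1 way in all 3 pairs. Shares without overlap must do so, which places the 5 among them. The same count over the transcripts of all genes was not made, so the 9 cannot be set against a background. The lowest adjusted p of a member over all settings was 0.0903 in edgeR's diffSpliceDGE, for Elavl2 without WT replicate 2 (unadjusted p = 0.00042). Elavl1 had an unadjusted p of 0.0399 in limma's diffSplice. In diffSpliceDGE its unadjusted p was 0.0209 with a term for the mice numbered 1 and 0.0295 without both of them. Elavl4 had an unadjusted p of 0.0243 in diffSpliceDGE without both of those mice.

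**Figure D4:**
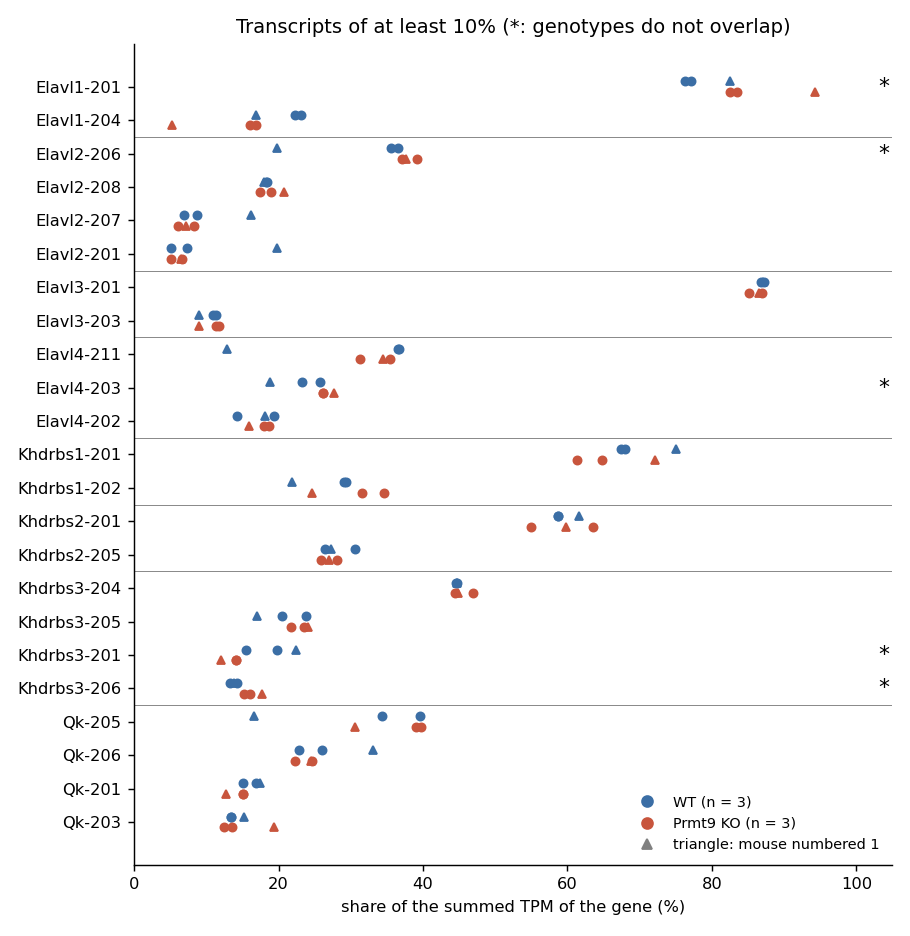
Share of the summed TPM of the gene, in percent, of each of the 23 member transcripts that reach 10% in 1 genotype or both, in 3 WT (blue) and 3 Prmt9 KO (red) mice, with triangles for the mice numbered 1 and asterisks where the genotypes do not overlap. Khdrbs3-201 and Khdrbs3-206 separate in opposite directions, and in Elavl2 and Elavl4 the point that is far from the others is WT replicate 1.

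Khdrbs3 gave both a lower and a higher form. Khdrbs3-201, the protein-coding form with 9 exons, had shares of 22.4%, 19.8% and 15.5% in WT and 12%, 14.2% and 14.1% in KO. Khdrbs3-206, the form without the exons of 117 and 147 bases, had 13.8%, 13.2% and 14.2% in WT and 17.7%, 16% and 15.3% in KO. The 3 KO mice were below the WT mice for the first and above them for the second. Among the 4 complete transcripts with a coding sequence that run across these exons, the form without them held 16.7%, 16.6% and 18.7% in WT and 23.2%, 21% and 19.5% in KO, or 17.3% ± 1.2 and 21.2% ± 1.9 (SD, n = 3 each, exact permutation test, p = 0.1). In the estimated counts it held 12.4%, 12.5% and 14.1% in WT and 17.9%, 16% and 14.8% in KO, again without overlap. The grouping leaves out Khdrbs3-205, an incomplete transcript of 501 bases whose span also covers these exons. Khdrbs3-205 held 16.9%, 20.5% and 23.7% of the gene TPM in WT and 24.0%, 23.5% and 21.7% in KO, with overlap. This grouping was made after the shares had been seen, and the Simes test of Khdrbs3 gave an adjusted p of 1 (diffSpliceDGE). Khdrbs3-206 is told apart from the other forms by 29 of its 1314 stretches of 31 bases (the unit kallisto matches), those over the join of the flanking exons, and Khdrbs3-201 by 12 of 1857.

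**Figure D5:**
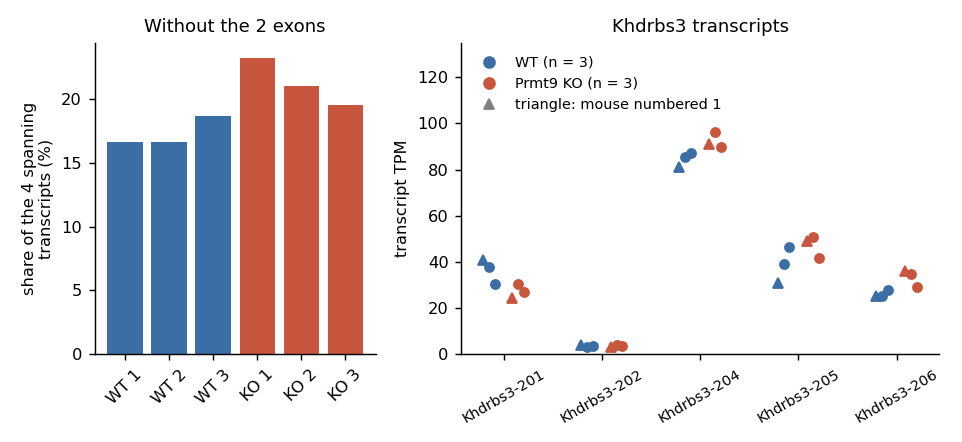
Left, share of the form without the 2 exons among the 4 complete Khdrbs3 transcripts with a coding sequence that span them, in percent, in each mouse. Right, TPM of 5 Khdrbs3 transcripts in 3 WT (blue) and 3 Prmt9 KO (red) mice, with triangles for the mice numbered 1. The KO bars lie between 19.5% and 23.2% and the WT bars between 16.6% and 18.7%.

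The most abundant Khdrbs3 transcript was Khdrbs3-204, at 44.7%, 44.7% and 44.6% in WT and 44.8%, 44.5% and 46.9% in KO. It is annotated as a target of nonsense-mediated decay, the pathway that removes messages with a stop codon upstream of an exon junction, and it has the same 1038 coding bases as Khdrbs3-201 with 2 further exons after the stop codon. Khdrbs1 and Qk had transcripts of the same kind. Khdrbs1-202 has the 1329 coding bases of Khdrbs1-201 and 3 exons after its stop codon, and it held 21.8%, 29.1% and 29.3% in WT and 24.6%, 31.6% and 34.5% in KO. Khdrbs1-201 held 75%, 68.0% and 67.5% in WT and 72.2%, 64.8% and 61.4% in KO. Each KO mouse had more of Khdrbs1-202 than the WT mouse of the same number, but the groups overlapped, at 26.7% ± 4.3 and 30.2% ± 5.1 (SD, n = 3 each, exact permutation test, p = 0.4). Qk-202, with 1 exon after its stop codon and the 957 coding bases of Qk-206, held 4.32% to 8.39% of the Qk TPM in the 6 mice. Khdrbs2 was mostly Khdrbs2-201, at 61.6%, 58.7% and 58.7% in WT and 59.7%, 63.6% and 55.0% in KO, and the 2-exon form Khdrbs2-205, with only 273 coding bases, held 25.9% to 30.6%.

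Among the Qk transcripts with an annotated stop codon, the QKI-6 tail (Qk-202 and Qk-206) held 60.8%, 58.7% and 58.2% in WT and 61.3%, 57.7% and 59.6% in KO. The QKI-7 tail (Qk-201) held 25.5%, 32.2% and 31.9% in WT and 25.3%, 32.1% and 31.1% in KO. The QKI-5 tail (Qk-204) held 13.6%, 9.10% and 9.87% in WT and 13.4%, 10.1% and 9.32% in KO. The genotypes overlapped for all 3 tails (exact permutation test, two-sided, p = 0.9, p = 0.7 and p = 1.0 in that order). In both genotypes the mouse numbered 1, with the low Qk level and the low oligodendrocyte markers, had the highest QKI-5 and the lowest QKI-7 share. Qk-205, an incomplete transcript that leaves out the 117-base exon, took 16.6%, 34.3% and 39.5% of the Qk TPM in WT and 30.5%, 39.7% and 39% in KO. It is only 650 bases long, and its share of the estimated counts of the gene was 4.27% and 5.52% on average, so TPM gives this short form far more weight than reads do. Qk-203, a retained-intron transcript of 755 bases, held 15.2%, 13.4% and 13.4% in WT and 19.4%, 13.6% and 12.4% in KO, with overlap. None of its stretches of 31 bases is its own.

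In Elavl1 the form with the longer 3′ end and the upstream first exon, Elavl1-201 (5743 bases), held 82.5%, 77.1% and 76.2% in WT and 94.3%, 82.6% and 83.5% in KO. Elavl1-204 (2317 bases), which has another first exon, a shorter 3′ end and the same 978 coding bases, held 16.9%, 22.3% and 23.2% in WT and 5.19%, 16.9% and 16% in KO. The lowest KO share of Elavl1-201 and the highest WT share were 82.6% and 82.5%, so the groups parted by a narrow margin, and for Elavl1-204 they overlapped. When only protein-coding transcripts were counted the shares of Elavl1-201 overlapped too. Elavl1-204 has only 28 of 2287 stretches of 31 bases to itself.

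In Elavl2, the short form Elavl2-206 (1282 bases) held 19.7%, 36.6% and 35.5% in WT and 37.7%, 39.1% and 37.1% in KO. Elavl2-208, the form with the hinge exon, a 91-base exon and the shorter start of the last exon, held 18.0%, 18.3% and 18.2% in WT and 20.7%, 19.0% and 17.4% in KO. Elavl2-201 and Elavl2-207, at 19.8% and 16.2% in WT replicate 1, were at 5.12% to 8.65% in the other 5 mice. In Elavl4, Elavl4-203, which holds both the hinge exon and the extension, had 18.8%, 23.2% and 25.8% in WT and 27.7%, 26.2% and 26.1% in KO. Its sister form Elavl4-202, which starts from another first exon, had 18.1%, 19.4% and 14.3% in WT and 15.9%, 17.9% and 18.7% in KO. The noncoding Elavl4-211 held 12.9% in WT replicate 1 and 31.2% to 36.6% in the other mice. The Elavl2-206 and Elavl4-203 shares overlapped when counts were used in place of TPM, and Elavl2-201, Elavl4-202 and Elavl4-203 have no stretch of 31 bases to themselves. Elavl3 was the most uniform: Elavl3-201 held 87.0%, 86.8% and 87.2% in WT and 86.5%, 86.9% and 85.2% in KO, and Elavl3-203, whose stop codon directly follows the hinge exon and ends the protein there, held 8.92% to 11.8%.

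Splicing events were built from the annotated exons, with PSI (percent spliced in, as a fraction) taken as the TPM of the including transcripts over that of the including and excluding ones. Of 20 events in the 8 genes, 16 had enough TPM (1 or more in each mouse) and a mean PSI that was not extreme (0.05 to 0.95 in a genotype): 8 alternative acceptors, 7 cassette exons and 1 alternative donor, in Elavl2 (8), Qk (4), Elavl4 (3) and Elavl3 (1). A call needed a PSI difference of 0.05 or more beside an adjusted p of 0.01 or less, and limma called 0 of these 16 and 0 of all 24081 (0%), while the 16 held 0 with an unadjusted p below 0.05, against 3.21% of all events. With each of the other settings, limma called 0 as well.

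The smallest p belonged to an 87-base cassette exon of Elavl4 at chr4:110255419-110255505, with PSI of 0.381, 0.125 and 0.124 in WT and 0.078, 0.092 and 0.090 in KO (limma, unadjusted p = 0.0762, adjusted p = 1). All KO values were below all WT values, and the mean difference was −0.123, or −0.038 without WT replicate 1. Next was the 3-base acceptor pair of the Elavl2 last exon when joined past the hinge exon, where the longer form had 0.854, 0.817 and 0.802 in WT and 0.768, 0.732 and 0.793 in KO (limma, unadjusted p = 0.0794, adjusted p = 1). The only excluding form of this event is Elavl2-205, at 0.808 to 1.07 TPM, which has another first exon than the including Elavl2-207. The 87-base exon and this acceptor pair were the 2 of 16 events without overlap, where 10.7% of all events had none. The same acceptor pair joined to the hinge exon itself, which rests on more transcripts, gave 0.573, 0.566 and 0.576 in WT and 0.556, 0.573 and 0.581 in KO.

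Of the other hinge events, the Elavl2 hinge exon before the longer last exon had PSI of 0.710, 0.835 and 0.855 in WT and 0.859, 0.880 and 0.841 in KO, where the including forms are Elavl2-201 and the short Elavl2-206. Before the shorter last exon it had 0.899, 0.933 and 0.935 in WT and 0.930, 0.922 and 0.920 in KO. The Elavl4 hinge exon had 0.762, 0.911 and 0.920 in WT and 0.884, 0.893 and 0.895 in KO, with the least in WT replicate 1. That event leaves out Elavl4-202 and Elavl4-203, which hold the exon and the extension, and in every mouse but WT replicate 1 most of its including TPM is the noncoding Elavl4-211 of 869 bases. Among its coding forms the exon was included at 67.5%, 49.8% and 53.3% in WT and 59.3%, 30.8% and 58.1% in KO. The 42-base Elavl4 extension had PSI of 0.501, 0.512 and 0.497 in WT and 0.506, 0.541 and 0.546 in KO (limma, unadjusted p = 0.340). In the same 5 mice Elavl4-211 is most of the excluding TPM, and among the coding forms the extension was in 60.8%, 91.6% and 90.8% in WT and 84.3%, 95.7% and 88.1% in KO, with overlap between the genotypes. By estimated counts of all forms of the event its share was 73.3% in WT and 80.0% in KO on average. The groupings by coding forms were made after the PSI values had been seen. The 3 optional bases of the Elavl3 second exon were included at 0.907, 0.885 and 0.888 in WT and 0.906, 0.885 and 0.879 in KO. The 117-base exon of Qk had 0.805, 0.604 and 0.543 in WT and 0.621, 0.541 and 0.554 in KO, and its excluding form is the short Qk-205.

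Genes that these proteins are known to bind or regulate were described from lists, each gene tested in the fit over all genes. Of 12 ELAVL targets tested, 0 were called in either direction, 0 had an unadjusted p below 0.05 in edgeR and the median log2 fold change was 0.03, beside −0.01 over all genes. The lowest was Bdnf, a neurotrophin, at −0.32 (SE 0.19), and the highest Gap43, a growth cone protein whose message is a classic ELAVL4 target, at 0.29 (SE 0.71). Of 10 KHDRBS targets, 0 were called in edgeR, 0 had an unadjusted p below 0.05 and the median was 0.00, between Actb at −0.11 (SE 0.27) and Cd44 at 0.19 (SE 0.27). In the usage test, 0 of the 12 ELAVL targets, 1 of these 10 and 0 of the 9 QK targets were called, beside 0.162% of all genes. The 1 was Nrxn2, a neurexin gene, with an adjusted p of 0.00176 (edgeR diffSpliceDGE). This call was lost with at least 10 counts in every mouse (adjusted p = 1), with the F test (0.947) and with the mouse number as a block (0.0224), and over the 6 fits that leave out 1 mouse it held only without WT replicate 1, with adjusted p between 5.18e-08 and 0.0838. It was kept by limma's diffSplice (adjusted p = 0.00035). In diffSpliceDGE it was also kept with a term for the mice numbered 1 (8.02e-05) and without both of them (1.06e-16). Of 9 QK targets, 0 were called in edgeR, 0 had an unadjusted p below 0.05 and the median was −0.21, with 1 of 9 positive. They ran from Mag, a myelin glycoprotein, at −0.40 (SE 0.79) to Hnrnpa1 at 0.04 (SE 0.18), and 5 of the 9 are also on the list of oligodendrocyte markers that were low in both mice numbered 1. Sf1, the STAR-family splicing factor that binds the branch point, was at 0.05 (SE 0.11).

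The genes whose levels followed each member most closely over the 6 mice were chosen by the smallest root-mean-square difference in log2(TPM + 1), centred on its own mean, among 14176 genes of at least 1 TPM in every mouse. For Qk these were Utrn (0.032) and Gm48368 (0.038), where the median gene differed from Qk by 0.524. For Elavl3 they were Fam206a (0.016) and Daam1 (0.021), for Elavl2 Htr5a (0.024) and Wrnip1 (0.033), for Elavl4 Cntnap4 (0.037) and Galntl6 (0.038), and for Elavl1 Chtf8 and Arap1 (both 0.025). For Khdrbs1 they were Gpr27 (0.013) and Kctd7 (0.015), for Khdrbs2 Birc6 and G6pc3 (both 0.018), and for Khdrbs3 Rad51c (0.011) and Myt1 (0.026). With 6 mice, of which the 2 numbered 1 set most of the spread, this is a description of these libraries.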

How the data were processed

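For each of the 6 mice the authors deposited, from kallisto, the estimated count and the TPM of each annotated transcript, and a gene table of summed TPM. The submitters' processing notes name kallisto 0.46.0, STAR 2.7.1a and GRCm38. Of 118783 transcripts, 116622 matched GENCODE M21, and 2161 were left out. Estimated counts were summed over genes, rounded and compared by edgeR 4.0.16 (TMM, filterByExpr, quasi-likelihood), with DESeq2 1.42.0 and limma 3.58.1 as alternatives. Usage was tested with diffSpliceDGE on rounded counts, events with limma on log2 ratios with 0.1 TPM added, and p-values were adjusted by Benjamini-Hochberg over all features tested. SE values of edgeR are the log2 fold change over the root of F, and intervals use its degrees of freedom. The 3 tests were tried on simulated data first. The 8 genes, the transcripts of 10% or more, at most 8 events per result and the extremes of the lists were named by rule, and the members and lists were chosen with earlier results of these data known. Same-numbered mice deviated together (correlations of 0.808, 0.743 and 0.704), although WT 3 and KO 2 did as well (0.758). Kallisto splits reads among forms that share sequence, and TPM raises short forms over their share of reads. Between 0% and 3.81% of a member's 31-base stretches lie in another gene.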

Additional observations from a re-analysis of the deposited data

How the results depend on the processing

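No member gene, member usage test or member event was called under any alternative, the replicate block included, where the counts were 0, 0 and 0. Over all genes, edgeR called 0, DESeq2 3, and 1 each were called when the mice numbered 1 had a term of their own and when both were left out. Usage calls over all genes, 22 as reported, were 12 by the F test, 12 with the replicate block, 1 with at least 10 counts in every mouse, 3 with voom, 52 with that term, 230 without both mice numbered 1, and 6 to 139 when each mouse was left out (6 without Prmt9 KO replicate 3, 139 without WT replicate 1). Member transcripts without overlap, 5 of 30, were 9 with the same sign in all same-numbered pairs (replicate block), 9 without both mice numbered 1 and 6 to 10 when each mouse was left out (8, 10 and 9 without WT replicates 2 and 3 and Prmt9 KO replicate 2). All of these held the same 5, as they must, because values without overlap stay apart when mice are paired or left out. With fewer mice, groups also part more often without any difference. The share over all transcripts was not counted for these settings, so their higher counts cannot be read as a stronger result. By counts 4 did not overlap, 3 of them the same, and among protein-coding transcripts likewise 4 and 3.

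The small log2 fold changes changed sign as follows, and the cause was not tested. With limma on TPM, Elavl2 was 0.15 at either pseudocount, Khdrbs2 0.055 and 0.047, Khdrbs3 0.10 and Qk 0.17 at either pseudocount. The median over all genes was 0.066 with 0.1 TPM added and 0.046 with 1 TPM added, beside −0.011 in edgeR. Without the filter Elavl2 was 0.0032. Elavl4 was −0.0037 with DESeq2, −0.0033 with its size factors, −0.010 with the replicate block and −0.0082 with the term for the mice numbered 1. Without both mice numbered 1, Elavl3 was −0.070, Elavl4 −0.083 and Khdrbs3 0.060. With each mouse left out, Elavl2 ranged from −0.12 to 0.095, Elavl3 from −0.082 to 0.11, Elavl4 from −0.15 to 0.12, Khdrbs3 from −0.098 to 0.097 and Qk from −0.27 to 0.16.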
